A study of Homo sapiens with 8 samples.

Results

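The BCL2 family decides whether mitochondria release the factors that start apoptosis, and transcripts of 10 of its genes were followed here by RNA-seq: BCL2, BCL2L1, MCL1, BAX, BAK1, BBC3, PMAIP1, BCL2L11, BID and BIK. They were taken by gene symbol, and each matched 1 Ensembl gene, giving 10 of the 60646 genes in the count table. The cells were MDA-MB-231, a line established from a human triple-negative breast cancer. There were 4 wild-type samples and 4 samples labelled as a DOT1L knockout (DOT1L/+), which had been edited with a guide RNA against exon 1 of DOT1L, the H3K79 methyltransferase. Both groups were grown in the same medium and collected the day after plating, with no further agent. The labels name neither the edit, nor the number of alleles hit, nor whether the edited cells are 1 clone, and they do not tie the samples of a group to separate cultures. P-values therefore reflect only how far these samples scatter, part of which may be technical, and a difference between the edited and the unedited cells cannot be told apart from a difference between clones.

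Members of the family act by binding one another at the outer mitochondrial membrane. Survival proteins (BCL-2, BCL-XL, which BCL2L1 encodes, and MCL-1) hold the effectors BAX and BAK in check. Effectors that escape this hold form pores that let cytochrome c out and switch on caspases. BH3-only proteins report stress: PUMA (BBC3), NOXA (PMAIP1), BIM (BCL2L11), BID and BIK occupy the groove of the survival proteins, and BIM and BID can also activate the effectors directly. Much of this control lies in protein turnover, cleavage and binding, which transcript counts do not measure.

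Totals ran from 40103408 to 50031412 counts per sample. Expression is given as CPM, the usual unit of counts relative to the library total, with libraries scaled by trimmed mean of M-values (TMM), so that 1 count stood for 0.0198 to 0.0250 CPM. DOT1L, the targeted gene, fell from 109 ± 8.52 to 84.7 ± 5.91 CPM (SD, n = 4 each), with a log2 change of -0.37 (adjusted p = 2.83e-05). Of 19877 genes tested, 23.9% were called higher and 23.6% lower in the knockout at an adjusted p below 0.05, 47.6% in all, and the CPM of the groups did not overlap for 43.4%. Higher calls made up 50.3% of the called genes, against 61.2% when library totals alone set the scale and 61.9% with upper-quartile scaling. The markers expected of this line (VIM, CD44, EGFR, AXL, CAV1 and MSN) summed to 6661 to 7480 CPM in wild-type and 7259 to 7696 CPM in knockout samples, with VIM called higher (log2 change 0.40) and EGFR (-0.39) and AXL (-0.30) lower. The sums were low for 6 luminal or epithelial genes (ESR1, PGR, CDH1, EPCAM, GATA3 and KRT20), at 10.6 to 11.3 and 11.4 to 14.7 CPM. Among them ESR1 went from 0.262 to 0.538 CPM and was called higher (adjusted p = 0.0333). GATA3 went from 3.98 to 4.97 CPM and was also called higher (adjusted p = 0.0195), while EPCAM did not pass. The untested CDH1 had 1 count over the wild-type and 41 over the knockout group, PGR had 5 and 18, and KRT20 had 1 and 1. None of the 6 was at 0 in every library. A list of 5 immune markers summed to 0.0634 to 0.472 CPM in wild-type and 0.523 to 1.01 CPM in knockout samples, with CD3E at 0 counts in wild-type, and 4 endothelial markers summed to 7.08 to 9.74 and 1.78 to 2.45 CPM. In the endothelial list KDR went from 7.12 to 0.143 CPM and was called lower, VWF from 0.182 to 0.718 CPM and was called higher, and PECAM1 and CDH5 did not pass. The expression filter needs 4 samples above 0.213 CPM. ESR1 and VWF met it only through their knockout samples, and KDR only through wild-type. The part of these shifts in the results below was not tested. In bulk RNA, fewer cells with a transcript and less of it per cell cannot be told apart.

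BCL2L1 and MCL1 were the most abundant members in both groups, BIK was the rarest in wild-type, and PMAIP1 moved up the order in the knockout. On a per-length scale (CPM per kilobase of merged exons) wild-type cells had BCL2L1 highest at 150.9 ± 7.21, then MCL1 at 89.3 ± 4.96, BAX at 24.6 ± 1.92, BAK1 at 19.0 ± 0.465 and PMAIP1 at 13.0 ± 1.12 (SD, n = 4). Below them came BID at 7.84 ± 0.261, BCL2L11 at 2.96 ± 0.218, BCL2 at 1.67 ± 0.0982, BBC3 at 1.04 ± 0.145 and BIK at 0.348 ± 0.130 CPM per kilobase. No neighbouring pair in this wild-type order had overlapping ranges. In the knockout PMAIP1 stood at 23.6 ± 1.19 CPM per kilobase, above BAK1 at 20.9 ± 0.194 and with a range overlapping that of BAX at 23.7 ± 1.01. BBC3 at 0.756 ± 0.112 and BIK at 0.733 ± 0.123 also overlapped in the knockout, where BIK was the higher of the pair in replicates 1, 3 and 5, and the other neighbours stayed apart. Merged exons include exons that these cells may not use, so genes with long alternative ends, such as BCL2 with 11765 exonic bases, can be understated on this scale.

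**Figure D1:**
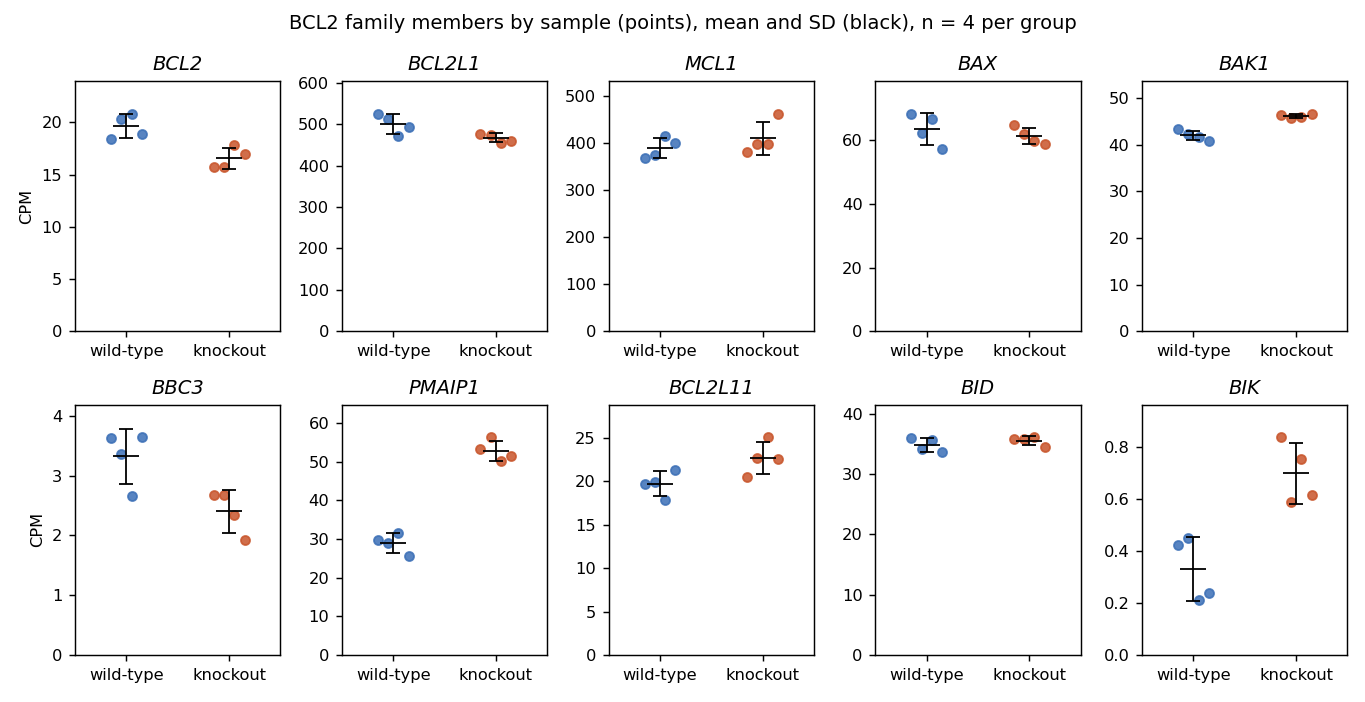
CPM (vertical axes, each from 0) of the 10 members in 4 wild-type (blue) and 4 knockout (orange) samples, with group mean and SD in black. PMAIP1 lies between 25.6 and 31.6 CPM in wild-type and between 50.1 and 56.3 CPM in knockout samples, while BID and BAX overlap.

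Of the 5 BH3-only genes, 3 rose (PMAIP1, BIK and BCL2L11), 1 fell (BBC3) and 1, BID, did not pass, on a background of 23.9% of all tested genes higher and 23.6% lower. Of these, BIK was tested by virtue of its knockout samples. PMAIP1 (ENSG00000141682, chromosome 18, 59899948 to 59904306, plus strand, GRCh38) encodes NOXA, which binds chiefly MCL-1 and promotes its degradation. Wild-type replicates 1, 2, 3 and 5 had 29.8, 28.98, 31.6 and 25.6 CPM of PMAIP1, and knockout replicates 1, 2, 3 and 5 had 53.2, 56.3, 50.1 and 51.4 CPM. Every knockout sample lay well above every wild-type sample. This amounted to a log2 change of 0.86 (SE 0.06, 95% interval 0.74 to 0.99, adjusted p = 1.90e-10), a 1.82-fold rise resting on 1157 to 2672 counts per library. Its size put PMAIP1 at the 88.0th percentile of absolute change among tested genes. Leaving out any 1 library gave log2 changes of 0.80 to 0.91.

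The 250 bases upstream of the PMAIP1 start (RefSeq, GRCh38.p14, chr18:59899746-59899995, plus strand) are shown because this is the member with the clearest change. Bases in capitals mark the single match to the 4 motifs searched, a cAMP response element half-site (TGACGT, read here on the minus strand). Positions are those of the left end of a match on the strand shown, here -56 from the start.
PMAIP1: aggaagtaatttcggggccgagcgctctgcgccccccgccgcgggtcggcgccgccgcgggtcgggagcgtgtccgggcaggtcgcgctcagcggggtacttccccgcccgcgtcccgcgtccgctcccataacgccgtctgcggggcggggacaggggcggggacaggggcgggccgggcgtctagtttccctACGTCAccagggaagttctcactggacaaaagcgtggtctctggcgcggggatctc
The search covered both strands of windows of 300 bases for the half-site TGACGT, the E-box CACGTG, the CEBP-ATF response element TGATGNAA and the FOXO site GTAAACA. Of 35116 such windows over all genes, 7.98% held TGACGT, 7.26% CACGTG, 3.62% TGATGNAA and 3.42% GTAAACA. A match describes letters and does not show that a factor binds. Windows were found for 8 members (13 windows in all), and no match overlapped one of another motif.

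BIK (ENSG00000100290, chromosome 22, 43110748 to 43129712, plus strand) encodes a BH3-only protein of the endoplasmic reticulum. It was counted 18, 18, 10 and 11 times in wild-type replicates 1, 2, 3 and 5, and 41, 28, 36 and 31 times in the knockout replicates. Those counts are 0.425, 0.451, 0.211 and 0.240 CPM against 0.837, 0.590, 0.752 and 0.615 CPM, so the groups did not overlap, but all values were low. BIK rose by a log2 change of 1.09 (SE 0.28, 95% interval 0.51 to 1.68, adjusted p = 0.00280). Only 3 of 4 wild-type samples reached the limit of 0.213 CPM of the expression filter, which needs 4 samples, so BIK was tested by virtue of its knockout samples. On the deposited variance-stabilized scale, which compresses low counts, its log2 change was 0.35.

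BCL2L11 (ENSG00000153094, chromosome 2, 111119378 to 111168447, plus strand) encodes BIM, a BH3-only protein that binds every survival member and is a target of FOXO factors. Its wild-type values in replicates 1, 2, 3 and 5 were 19.7, 19.96, 17.8 and 21.4 CPM, and its knockout values 20.5, 22.7, 25.1 and 22.6 CPM. The groups overlapped, with knockout replicate 1 below wild-type replicate 5, while all 4 same-numbered pairs were higher in the knockout. The log2 change was 0.20 (SE 0.07, adjusted p = 0.0201), and it no longer passed once replicate 3 of wild-type (adjusted p = 0.0549) or of the knockout (0.105) was left out. MIR4435-2HG, a non-coding gene on the opposite strand, shares 727 exonic bases with BCL2L11 and stood at 101 ± 5.18 and 95.4 ± 4.48 CPM, with a log2 change of -0.08 (adjusted p = 0.167). How strand was treated in counting is not known here, so reads from either gene of this pair may have been assigned to the other. The promoter window of BCL2L11 held 1 FOXO site, at -223 from the start.

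BBC3 (ENSG00000105327, chromosome 19, 47220822 to 47232766, minus strand) encodes PUMA, a stress-induced protein that binds all survival members. It went the other way. The wild-type values in replicates 1, 2, 3 and 5 were 3.63, 3.36, 2.66 and 3.64 CPM and the knockout values 2.67, 2.67, 2.34 and 1.92 CPM. The groups touched, since wild-type replicate 3 lay just under knockout replicates 1 and 2, and all 4 same-numbered pairs were lower in the knockout. BBC3 had a log2 change of -0.47 (SE 0.14, 95% interval -0.76 to -0.17, adjusted p = 0.00990) on 97 to 167 counts per library, which passed under each of the 15 alternative settings run. On the deposited variance-stabilized scale it was -0.30.

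BID (ENSG00000015475, chromosome 22, 17734138 to 17774770, minus strand) links death receptors to mitochondria once caspase-8 has cut it. Its values were 36.0, 34.1, 35.7 and 33.7 CPM in wild-type replicates 1, 2, 3 and 5 and 35.8, 35.75, 36.1 and 34.4 CPM in the knockout. The groups overlapped almost fully. Its log2 change was 0.03 with a 95% interval of -0.08 to 0.13 (adjusted p = 0.688).

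Among the 3 survival genes BCL2 fell, and BCL2L1 and MCL1 did not pass. BCL2 (ENSG00000171791, chromosome 18, 63123346 to 63320128, minus strand), the founding member, had 18.4, 20.4, 20.8 and 18.9 CPM in wild-type replicates 1, 2, 3 and 5 and 15.7, 15.8, 17.8 and 17.0 CPM in the knockout replicates. All knockout samples lay below all wild-type samples, by a small margin. BCL2 had a log2 change of -0.24 (SE 0.07, adjusted p = 0.00437), and leaving out any 1 library gave changes of -0.28 to -0.21 that all passed.

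BCL2L1 (ENSG00000171552, chromosome 20, 31664452 to 31723989, minus strand) had 526, 512, 470.4 and 493 CPM in wild-type replicates 1, 2, 3 and 5 and 478, 475, 455 and 459.95 CPM in the knockout. The groups overlapped through wild-type replicate 3, while each of the 4 same-numbered pairs was lower in the knockout. The log2 change of -0.10 (SE 0.05, adjusted p = 0.0943) did not pass. A block for replicate number brought it past the threshold (adjusted p = 0.0455), as did leaving out wild-type replicate 3 (0.0110). With library totals the change was -0.04. Counts per gene do not separate the long survival isoform of BCL2L1 from its short pro-apoptotic one. ABALON, an antisense gene with 1424 exonic bases in common with BCL2L1, stood at 1.26 ± 0.221 and 1.34 ± 0.289 CPM.

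MCL1 (ENSG00000143384, chromosome 1, 150574551 to 150579738, minus strand) encodes a survival protein with a short half-life and is the preferred partner of NOXA. Its values were 368, 376, 415 and 401 CPM in wild-type replicates 1, 2, 3 and 5 and 382, 399, 398 and 463 CPM in the knockout replicates. Knockout replicate 5 was the highest of the 8 samples and the groups overlapped. MCL1 had a log2 change of 0.07 (SE 0.06, adjusted p = 0.320), and without knockout replicate 5 it was 0.01 (adjusted p = 0.882). With library totals alone MCL1 passed at a log2 change of 0.14 (adjusted p = 0.0486).

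Of the 2 effectors, BAK1 rose slightly and BAX did not pass. BAK1 (ENSG00000030110, chromosome 6, 33572547 to 33580293, minus strand), which sits in the outer mitochondrial membrane, had 43.3, 42.3, 41.6 and 40.9 CPM in wild-type replicates 1, 2, 3 and 5 and 46.4, 45.8, 45.9 and 46.7 CPM in the knockout. The ranges were narrow and did not overlap. The log2 change of 0.14 (SE 0.05, adjusted p = 0.0195) corresponds to 1.10-fold. It did not pass once wild-type replicate 5 was left out (adjusted p = 0.0637) or with no expression filter (0.0880). Its processed pseudogene BAK1P1, with which it may share reads, stood at 4.28 ± 0.228 and 5.06 ± 0.542 CPM, a log2 change of 0.24 that did not pass (adjusted p = 0.0680).

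BAX (ENSG00000087088, chromosome 19, 48954815 to 48961798, plus strand), a cytosolic effector that moves to mitochondria on activation, had 68.4, 62.3, 66.6 and 57.3 CPM in wild-type replicates 1, 2, 3 and 5 and 64.8, 62.0, 59.8 and 58.9 CPM in the knockout. The knockout range lay inside that of wild-type. BAX had a log2 change of -0.05 (95% interval -0.17 to 0.06, adjusted p = 0.459), or 0.01 with library totals or upper-quartile scaling. The upstream bases of BAX (RefSeq, GRCh38.p14, chr19:48954625-48954874, plus strand) are shown because E-boxes are the letters that MYC and the Mondo proteins of the series' title are known to bind. Capitals mark the E-box CACGTG, found 4 times, at -138, -93, -45 and -14 from the start.
BAX: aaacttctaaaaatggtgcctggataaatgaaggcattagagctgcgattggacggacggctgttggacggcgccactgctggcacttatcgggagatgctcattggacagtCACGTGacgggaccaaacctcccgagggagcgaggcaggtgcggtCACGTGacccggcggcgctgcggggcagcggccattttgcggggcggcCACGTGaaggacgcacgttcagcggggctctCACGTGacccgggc
Only 5 of the 35116 windows (0.0142%) held 4 or more E-boxes. Among the 13 member windows that of BAX held the most E-boxes, so this share describes the highest of them. One E-box was also present in the window of BBC3 (at -232) and another was shared by 2 overlapping windows of BID, which has 5 windows.

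In all, 4 members rose, 2 fell and 4 did not pass, or 60.0% called, against 47.6% of all tested genes, and 4 of the 10 had groups that did not overlap, against 43.4%. BIK, which was tested by virtue of its knockout samples, counts in both shares. The median change over the members was 0.05, against 0.00 over all tested genes. With so few genes these shares lie near the background and are no result about the family as a whole. Sizes were uneven: PMAIP1 and BIK moved by over 0.8 on the log2 scale, BBC3 by 0.47 in the other direction, and each of the other 7 by at most 0.24. The 6 calls were the same with DESeq2, with limma on the deposited variance-stabilized values and with upper-quartile scaling, which called 33.7%, 47.7% and 48.9% of all genes they tested.

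**Figure D2:**
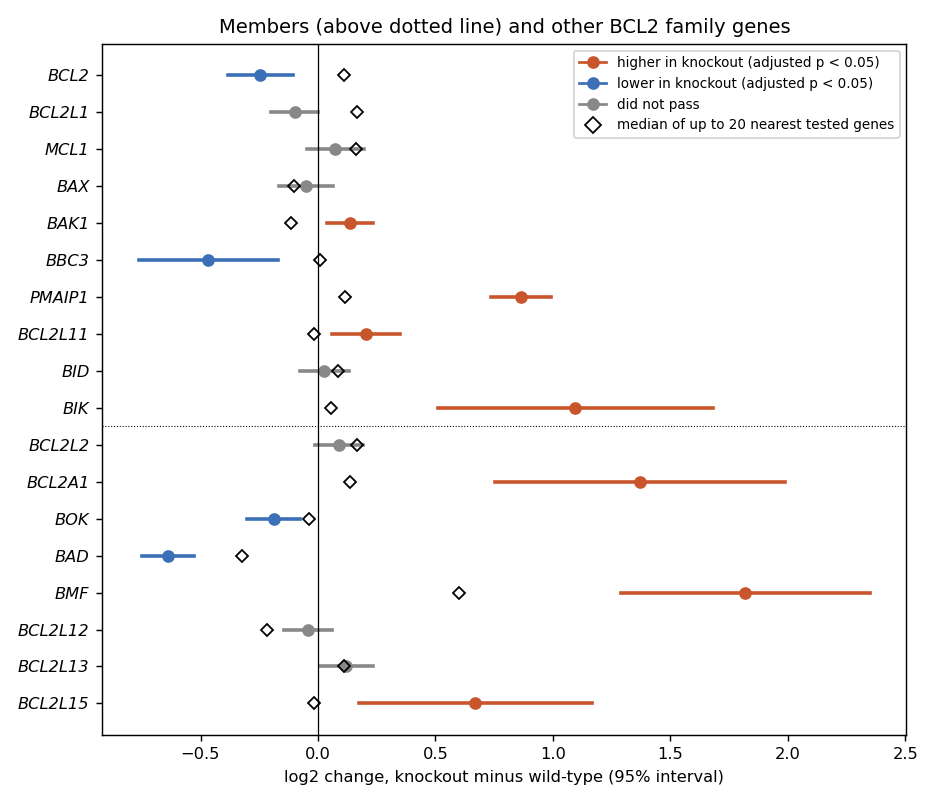
Log2 change, knockout minus wild-type (horizontal axis, point with 95% interval), for the 10 members and 8 tested other family genes, coloured by direction where the adjusted p was below 0.05. Open diamonds give the median change of up to 20 nearest tested genes, which lies outside the interval for PMAIP1 (0.12) and inside it for BID (0.09).

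The make-up of the transcript pool of these 10 genes does not depend on library scaling. Counts per kilobase of each member were divided by their sum over the 10 genes in each sample. The BH3-only members made up 8.10 ± 0.280% of the pool in wild-type and 11.5 ± 0.452% in knockout samples (SD, n = 4 each), with ranges of 7.71 to 8.37% and 10.9 to 12.0% that did not overlap. PMAIP1 alone went from 4.17 ± 0.339% to 7.44 ± 0.365%. The pool leaves out other family genes, so these shares depend on which genes were taken. Per kilobase, PMAIP1 went from 13.0 to 23.6 CPM, while BAD, a BH3-only gene outside the pool, went from 28.4 down to 18.2 CPM. Also outside it, the BH3-only genes BMF (0.119 to 0.414) and HRK (0.00711 to 0.0347) and the survival gene BCL2A1 (5.61 to 14.4) went up. The survival members made up 77.9 ± 0.848% and 74.4 ± 0.833%, and the effectors 14.035 ± 0.581% and 14.06 ± 0.461%. Within the survival share BCL2L1 went from 48.6 ± 1.89% to 44.4 ± 1.29%, while MCL1 stood at 28.8 ± 1.90% and 29.6 ± 2.11%. The geometric mean ratio of MCL1 to PMAIP1, per kilobase, was 6.90 in wild-type and 3.97 in knockout samples, without overlap between the groups. That of BCL2L1 to BAK1 was 7.94 and 6.75, also without overlap, and that of BCL2L1 to BBC3 went the other way, from 145 to 188, without overlap. The ratio of BCL2L1 to BAX was 6.14 and 5.94, with overlap. Of the 10 ratios computed, these 4 are given, and the other 6 overlapped between groups. No test was applied to these shares and ratios, since they restate the changes of single members.

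**Figure D3:**
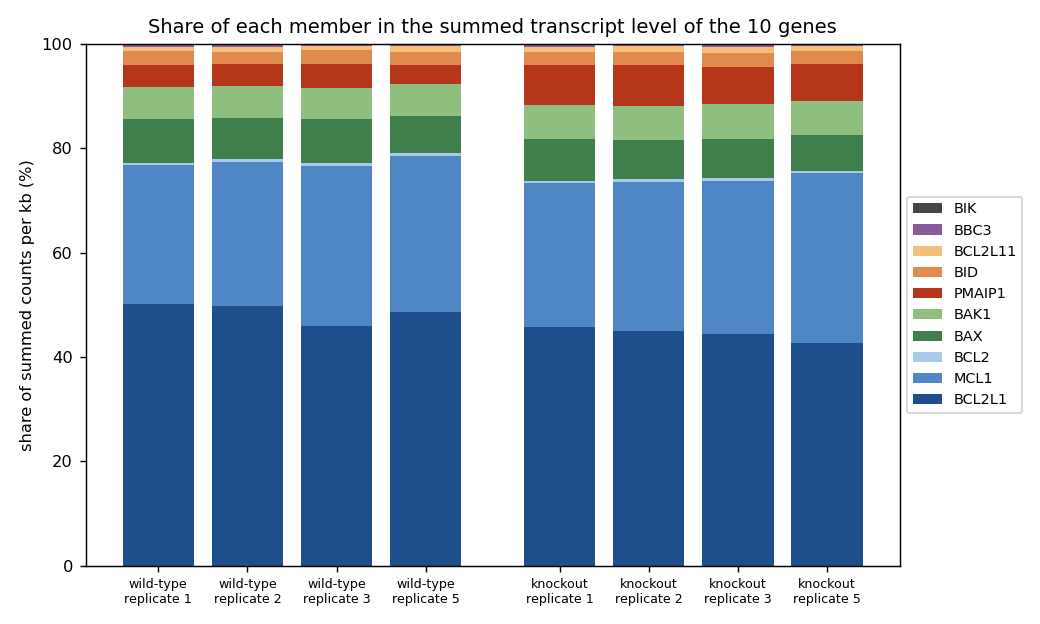
Share of each member in the summed counts per kilobase of the 10 genes (vertical axis, percent) in each of 8 samples. BCL2L1 and MCL1 fill most of every bar, and the PMAIP1 band is wider in the 4 knockout bars (7.07 to 7.90%) than in the 4 wild-type bars (3.74 to 4.57%).

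To show how far each change stood apart from its surroundings on the chromosome, each member was set beside the median log2 change of the 10 nearest tested genes on each side. Those medians ran from -0.12 around BAK1 to 0.17 around BCL2L1, smaller than the changes of PMAIP1, BIK and BBC3. Relative to its neighbours PMAIP1 stood at 0.75, BIK at 1.03, BBC3 at -0.47, BCL2 at -0.36, BAK1 at 0.25 and BCL2L11 at 0.22, each in the direction of its own change. The change of BAK1 (0.14) lay between the lower and upper quartiles of its neighbours (-0.25 and 0.15). Those of PMAIP1, BIK, BBC3, BCL2 and BCL2L11 lay outside theirs. BCL2L1 stood at -0.27 relative to neighbours of which 9 of 20 were called higher and 1 lower. Around the other members 2 to 6 of 20 were called higher and 1 to 7 lower, beside 23.9% and 23.6% of all tested genes. MCL1, BAX and BID lay within 0.09 of their neighbours' medians. These differences carry no test.

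Beyond the 10 members, BMF and BCL2A1 rose and BAD fell by larger steps than most members did. Of 11 further family genes, 8 were tested, of which 3 rose, 2 fell and 3 did not pass, with a median change of 0.10, on a background of 23.9% higher and 23.6% lower over all tested genes. BMF, a BH3-only protein tied to the cytoskeleton, went from 0.648 ± 0.277 to 2.25 ± 0.505 CPM, a rise of 1.81 in log2 (adjusted p = 1.04e-05), in a neighbourhood with a median change of 0.60. BMF rested on 19 to 39 counts in each wild-type library, and its change was 0.86 on the deposited variance-stabilized scale. BCL2A1, a survival gene known to be induced by NF-kB, had 5.83, 7.81, 5.45 and 5.36 CPM in wild-type replicates 1, 2, 3 and 5 and 12.3, 14.6, 12.5 and 23.5 CPM in the knockout. Its knockout replicate 5 stood above the other 3, and all 4 lay above wild-type. BCL2A1 had a log2 change of 1.37 (adjusted p = 0.00391), or 1.11 without that sample. BAD, a BH3-only protein held inactive by survival kinases, went from 48.5 ± 2.22 down to 31.15 ± 1.30 CPM, a log2 change of -0.64 (adjusted p = 1.99e-09), among neighbours with a median of -0.32. BOK, an effector-like member, fell from 35.005 ± 0.951 to 30.7 ± 1.67 CPM (adjusted p = 0.00619), a call that was lost with library totals (adjusted p = 0.0674) or upper-quartile scaling (0.0628).

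BCL2L15 rose from 0.531 ± 0.155 to 0.839 ± 0.0974 CPM (adjusted p = 0.0252), but not without wild-type replicate 1 (adjusted p = 0.0628) or 3 (0.0795), not without knockout replicate 2 (0.0682) or 3 (0.0662), and not with DESeq2 (0.0646). BCL2L15 had a log2 change of 0.67, or 0.25 on the deposited variance-stabilized scale. BCL2L2, which encodes the survival protein BCL-W, had a log2 change of 0.09 (adjusted p = 0.147). The read-through gene BCL2L2-PABPN1, with which it may share reads, stood at 1.83 ± 0.199 and 2.42 ± 0.207 CPM. That gene was called higher (log2 change 0.40, adjusted p = 0.0215). BCL2L2 itself passed with library totals (0.0186), upper-quartile scaling (0.0133) or the filter at a mean log2 CPM of 1. BCL2L12 had a change of -0.04, or 0.02 with either of these scalings, and did not pass. BCL2L13, a mitochondrial member, had a change of 0.12 (adjusted p = 0.0733). It passed with the replicate block (0.0236) and with wild-type replicate 3 (0.0297) or knockout replicate 5 (0.0114) left out. Those scalings and that filter also brought it past the threshold. The 3 untested genes were rare: the BH3-only gene HRK had 9 counts over the wild-type and 46 over the knockout group, BCL2L10 had 0 and 3, and BCL2L14 had 0 and 4.

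Downstream of the mitochondria, 3 of 11 apoptosome and caspase genes rose, 4 fell and 4 did not pass (median change 0.00), near the background of 23.9% of all tested genes higher and 23.6% lower. The executioner caspase CASP6 fell from 12.8 ± 0.712 to 7.59 ± 0.614 CPM (-0.76 in log2, adjusted p = 1.06e-07), among neighbours with a median of -0.84. HTRA2, a mitochondrial protease that blocks inhibitors of apoptosis, rose from 33.8 ± 1.58 to 45.4 ± 3.04 CPM (0.42, adjusted p = 2.21e-06). Of 6 inhibitors of apoptosis, 1 rose, 1 fell and 4 did not pass (median 0.05), against 47.6% of all tested genes called. BIRC3, encoding cIAP2, fell from 28.1 ± 0.736 to 20.3 ± 1.10 CPM (-0.47, adjusted p = 7.57e-07) although its neighbours had a median of 0.75. BIRC2, encoding cIAP1, rose from 214 ± 37.1 to 270.6 ± 15.6 CPM (0.34, adjusted p = 0.0356) among neighbours with a median of 0.87. The BIRC2 call was lost when wild-type replicate 1 or 2, or any 1 knockout sample, was left out (adjusted p from 0.0580 to 0.0915), and it passed with the replicate block at 0.000639. BIRC6 had a change of 0.12 (adjusted p = 0.0993), which passed with the block (0.0131) and with wild-type replicate 5 (0.0465) or knockout replicate 1 (0.0339) left out. It also passed with library totals, upper-quartile scaling or the filter at a mean log2 CPM of 1.

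In the death receptor pathway, which reaches the family through BID, 3 of 11 tested genes rose, 4 fell and 4 did not pass (median 0.03), again near the 23.9% higher and 23.6% lower of all tested genes. FADD, the adaptor that recruits caspase-8, fell from 56.0 ± 0.767 to 44.5 ± 1.59 CPM (-0.33, adjusted p = 4.54e-06), with neighbours at a median of -0.44. The TRAIL receptor TNFRSF10B fell from 141 ± 4.40 to 115 ± 4.57 CPM (-0.30, adjusted p = 1.16e-05). TNFRSF1A, the main TNF receptor, rose from 139 ± 10.3 to 174 ± 7.56 CPM (0.32, adjusted p = 3.17e-05). Of 8 partners at the mitochondrial outer membrane and in mitochondrial dynamics, 0 rose, 3 fell and 5 did not pass (median -0.06), where 23.9% of all tested genes were higher and 23.6% lower. Those that fell were MTCH2, a docking site for BID, at -0.45 (adjusted p = 1.21e-06, neighbours -0.52), the channel VDAC1 at -0.24 (0.000589) and the fusion GTPase MFN2 at -0.18 (0.00335), or -0.12 with library totals or upper-quartile scaling.

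Of 7 factors that control turnover of family proteins, 0 rose, 3 fell and 4 did not pass (median -0.07), beside 23.9% higher and 23.6% lower over all tested genes. FBXW7, a ubiquitin ligase subunit that targets MCL-1 and MYC, fell from 25.2 ± 1.07 to 13.9 ± 1.73 CPM (-0.86, adjusted p = 6.66e-09) in a neighbourhood with a median of -0.79. USP13, a deubiquitinase that stabilizes MCL-1, fell with a log2 change of -0.28 (adjusted p = 2.62e-05), and CUL5, a cullin implicated in NOXA turnover, with -0.22 (0.00319). Of 10 tested transcription factors known to act on family genes 1 rose, 3 fell and 6 did not pass (median -0.03), against 47.6% of all tested genes called. MYC fell from 192.5 ± 14.2 to 124 ± 5.68 CPM (-0.63, adjusted p = 3.12e-09). ATF4, which can induce PMAIP1 and BBC3, fell from 274 ± 12.2 to 221 ± 9.70 CPM (-0.31, adjusted p = 1.89e-05), and FOXO4 rose from 3.59 ± 0.622 to 4.95 ± 0.186 CPM (0.47, adjusted p = 0.00282).

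**Figure D4:**
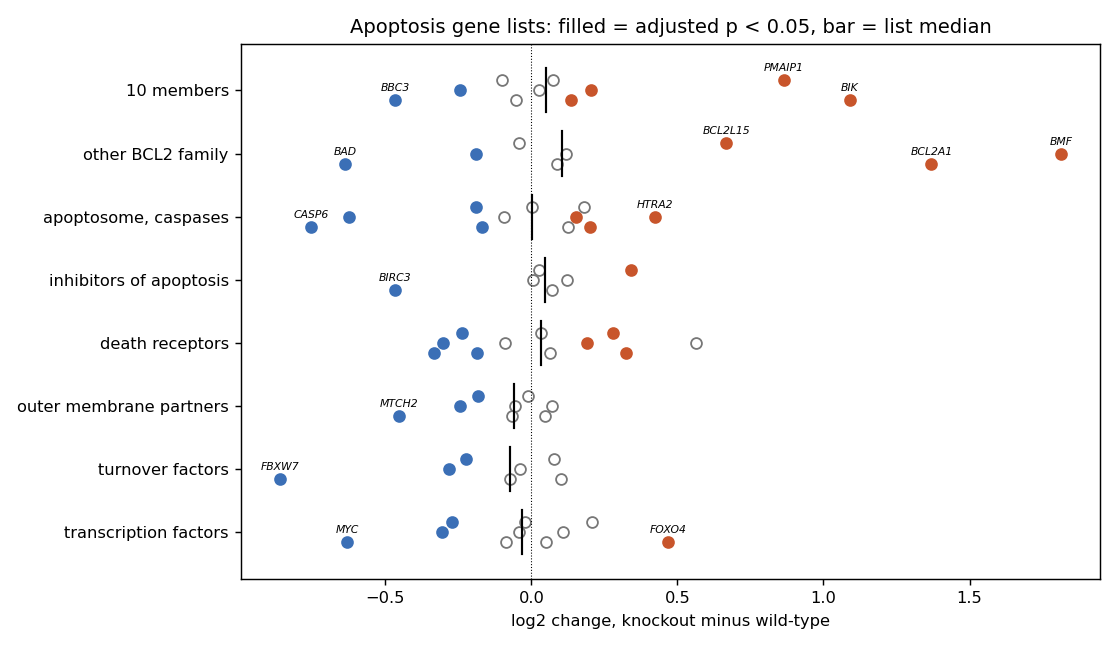
Log2 change, knockout minus wild-type (horizontal axis), of each tested gene in the 10 members and 7 related lists, filled where the adjusted p was below 0.05 and open otherwise, with a bar at each list's median. List medians lie between -0.07 and 0.10, and genes called in both directions appear in 6 of the 8 rows.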

How the data were processed

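RNA-seq of 8 samples (4 wild-type, 4 knockout) was analysed from a pair of deposited tables. One holds the authors' unnormalized counts for each Ensembl gene, the other their variance-stabilized values on a log2 scale. Per the submitters' processing notes, the tools were DESeq2 1.23.10, FastQC 0.11.7, STAR 2.6.0c, Subread 1.6.2 and featureCounts, with build hg38. For annotation release, strand setting and multiply mapped reads, the choice is not given in the sources used here. Libraries were stranded and ribosomal RNA was depleted, per the labels' protocols.

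Samples and columns were matched by title. Of 60646 genes, 60333 matched a symbol table and 58459 GENCODE 29 (GRCh38), the source of coordinates and exon lengths. Counts were compared in R 4.3.3 with edgeR 4.0.16 (filterByExpr, TMM, robust quasi-likelihood fit, group as the single term), and p-values were Benjamini-Hochberg adjusted over all 19877 tested genes at a threshold of 0.05. Every adjusted p is from this test unless another setting is named. The procedure was tested on simulated counts with far fewer changed genes than were called here and with no pairing. That test does not bear on the scaling or on paired samples. The 15 alternatives were DESeq2 1.42.0, limma 3.58.1 on the deposited log2 values, 2 scalings, 2 filters, a replicate block and leaving out each sample. Replicates of a group differed by more than sampling noise (chi-square per degree of freedom 3.41 to 18.4).

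Replicates are numbered 1, 2, 3 and 5 in each group. Each sample's deviation from its group mean correlated at 0.146 to 0.373 between same-numbered samples and at -0.302 to 0.0587 between others (13344 genes), so the numbers were taken to pair samples, a pairing inferred from these correlations. Deviations within a group cancel out, so these ranges are not independent. The pairing entered the same-numbered comparisons and the replicate block, and the main fit did not use it.

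Members and lists were chosen with earlier results of these data known. Named were all members, DOT1L, the other BCL2 family genes, and the 3 tested genes of smallest adjusted p in each other list, less 1 gene that is not reported here. Reads carry no molecular identifiers, so counts are not independent molecules. Promoter sequences are RefSeq's.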

Additional observations from a re-analysis of the deposited data

Results flagged for a closer look

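Among 72 groups of 4 samples (the named genes that were tested, in wild-type and in knockout), 3 held 1 sample set apart from the other 3 by Dixon's test at the 95% level, where chance alone flags about 1 in 20 groups. No member of the 10 was among them. BCL2L13 stood at 45.1 CPM in knockout replicate 5, against 51.2 to 51.9 CPM in the other 3. HTRA2 stood at 36.2 CPM in wild-type replicate 3, against 33.0 to 33.1 CPM. BIRC3 stood at 27.0 CPM in wild-type replicate 5, against 28.4 to 28.5 CPM.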

How the results depend on the processing

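PMAIP1, BCL2 and BBC3 kept their direction and their call under all 15 alternatives, with log2 changes of 0.80 to 0.93, -0.28 to -0.18 and -0.56 to -0.30. BIK did so under the 14 that tested it (0.35 to 1.26). BIK, BMF and BCL2L15 were not tested with the filter at a mean log2 CPM of 1. Counts were low for BIK (10 to 41 per library) and for the 3 untested family genes (0 to 17). BAK1 and BCL2L11 kept their direction under all 15 and their call under 13 each. Library totals and upper-quartile scaling shifted the median of all genes by 0.06 and 0.07, and they turned the direction of BAX (log2 changes of 0.0105 and 0.0130) and of BCL2L12 (0.0209 and 0.0239), neither past the threshold. Calls over all genes went from 4759 higher and 4699 lower to 5905 and 3744, and to 6021 and 3705. With either scaling, genes called higher became 5 (from 3) and lower 1 (from 2) in the other BCL2 family, higher 5 (from 3) among caspases, and higher 2 among inhibitors of apoptosis (from 1), outer membrane partners (from 0), turnover factors (from 0) and transcription factors (from 1). Requiring a mean log2 CPM of 1 gave 5 higher caspase genes, 2 higher inhibitors, 1 higher turnover factor and 2 higher transcription factors. The other BCL2 family kept 3 higher genes there, BCL2A1, BCL2L2 and BCL2L13, since BMF and BCL2L15 were untested. The replicate block gave 2 higher inhibitors, 1 higher turnover factor and 2 higher transcription factors, and moved BCL2L1, BCL2L13 and BIRC6 past the threshold. It ended no call of a named gene. Transcription factors called higher were also 2 with DESeq2 and with no expression filter. Leaving out 1 sample gave 0 to 2 higher inhibitors, 0 to 1 higher outer membrane partners (1 without wild-type replicate 3) and 0 to 1 higher turnover factors (1 without wild-type replicate 3 or knockout replicate 5). The cause of these shifts was not tested.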
